A study of Mus musculus with 2 samples.

Results

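Among 577 injured spinal cord cells, 125 were chosen by 3 measured levels: Ccl4 at 0.3% or more of the cell's transcripts, Spp1 below 0.5% and P2ry12 below 0.2%. They made up 21.7% of the injured cells (exact 95% binomial interval 18.4% to 25.3%), and the series held 1272 kept cells in all. Transcripts were counted as unique molecular identifiers (UMIs), tags that mark each captured RNA molecule once. The cells came from Cx3cr1-CreER::Rosa26-tdTomato+ve mice on the C57BL/6J background, in which 4-hydroxytamoxifen switches on the red protein tdTomato for good in cells that express Cx3cr1 at that time. In both groups the compound was injected in doses of 1 mg at postnatal week 4, cords were taken 4 weeks after it, and tdTomato-positive cells were sorted. The injured group is 1 library of cord 5 days after lysolecithin, a lipid that strips myelin from axons, and the uninjured age-matched group is 1 library as well. The labels give neither the number nor the sex of the animals behind a library, and tdTomato marks every lineage that expressed Cx3cr1 at the time of induction. With 1 library per group there is no replicate check, so no test was made, and all intervals cover counting error only.

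Ccl4 encodes a CC chemokine, a small secreted protein that draws leukocytes. Microglia, the resident macrophages of the central nervous system, transcribe Ccl3 and Ccl4 quickly after injury or when they are handled, together with Tnf, Il1a and Il1b and with targets of the transcription factor NF-kappa-B. Spp1 (osteopontin, a secreted phosphoprotein) is a gene of microglia that respond to damage, and P2ry12 (a receptor for released nucleotides) is a gene of resting microglia. The rule thus selects injured cells with much chemokine transcript and little of either of these genes.

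The 125 cells held 589051 UMIs, with a median of 4081 UMIs and 1524 genes per cell, against 4485 UMIs and 1572 genes in the other 452 injured cells. Mitochondrial genes took a median of 2.60% of their UMIs and 2.48% in the other injured cells. The 2 libraries shared 0 barcodes. Genes that define microglia were present at 15934 CPM (UMIs scaled by the group's total) in the summed Ccl4-rich low cells, with at least 3 UMIs in 124 of 125, at 16027 CPM in the other injured cells and at 24837 CPM in uninjured Ccl4-rich cells. P2ry12, which the rule used, is among these genes, and uninjured cells that met the same 3 limits stood at 19493 CPM. Markers of border-associated macrophages stood at 107 CPM (6 of 10 genes detected, with Cd163, Lyve1, F13a1 and Cbr2 at 0) against 225 CPM in the other injured cells. Monocyte markers stood at 98.5 CPM (4 of 10 genes detected, with Ly6c2 and Ccr2 at 0) against 211 CPM. Neutrophil markers stood at 100.2 CPM (2 of 10 genes detected, Csf3r and Cxcr2, with S100a8, S100a9 and Ly6g at 0) against 83.4 CPM in the other injured cells and 237 CPM in uninjured Ccl4-rich cells. T cell markers stood at 30.6 CPM (3 of 7 genes detected, with Cd3d, Cd3e, Cd3g and Cd8a at 0) against 40.7 CPM in the other injured cells, and 6 mast cell genes were at 0 in the Ccl4-rich low cells. The part of these marker differences in the results was not tested.

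The values that chose the cells are a description. Ccl4 took between 0.304% and 5.25% of a chosen cell's UMIs, with a median of 0.652%. In the other injured cells it ran from 0% to 8.51%, with a median of 0.135%. Spp1 had a median of 0.0978% and a highest value of 0.481% in the chosen cells, against a median of 0.127% and a highest value of 27.9% in the others. P2ry12 had a median of 0.0733% in the chosen cells and 0.0645% in the other injured cells, so the typical chosen cell was not poorer in P2ry12 than the typical injured cell. The label's words "low in P2ry12" hold against uninjured Ccl4-rich cells, where the median was 0.306%.

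The limits cut through a continuous spread. The cells just inside the Ccl4 limit had 0.304%, 0.305% and 0.307%, and those just outside had 0.2999%, 0.298% and 0.297%. For Spp1 the nearest values were 0.481%, 0.480% and 0.430% inside and 0.513%, 0.516% and 0.525% outside. For P2ry12 they were 0.193%, 0.188% and 0.187% inside and 0.2002%, 0.2003% and 0.203% outside. Counting error blurs these edges: the exact 95% interval of a cell's own share cleared the limit in 89 of 125 cells for Ccl4, in 113 for Spp1, in 55 for P2ry12 and in 33 for all 3 genes. In all, 243 injured cells (42.1%) were Ccl4-rich. Of these, 71 were kept out by Spp1 alone, 47 by P2ry12 alone and 0 by both.

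**Figure D1:**
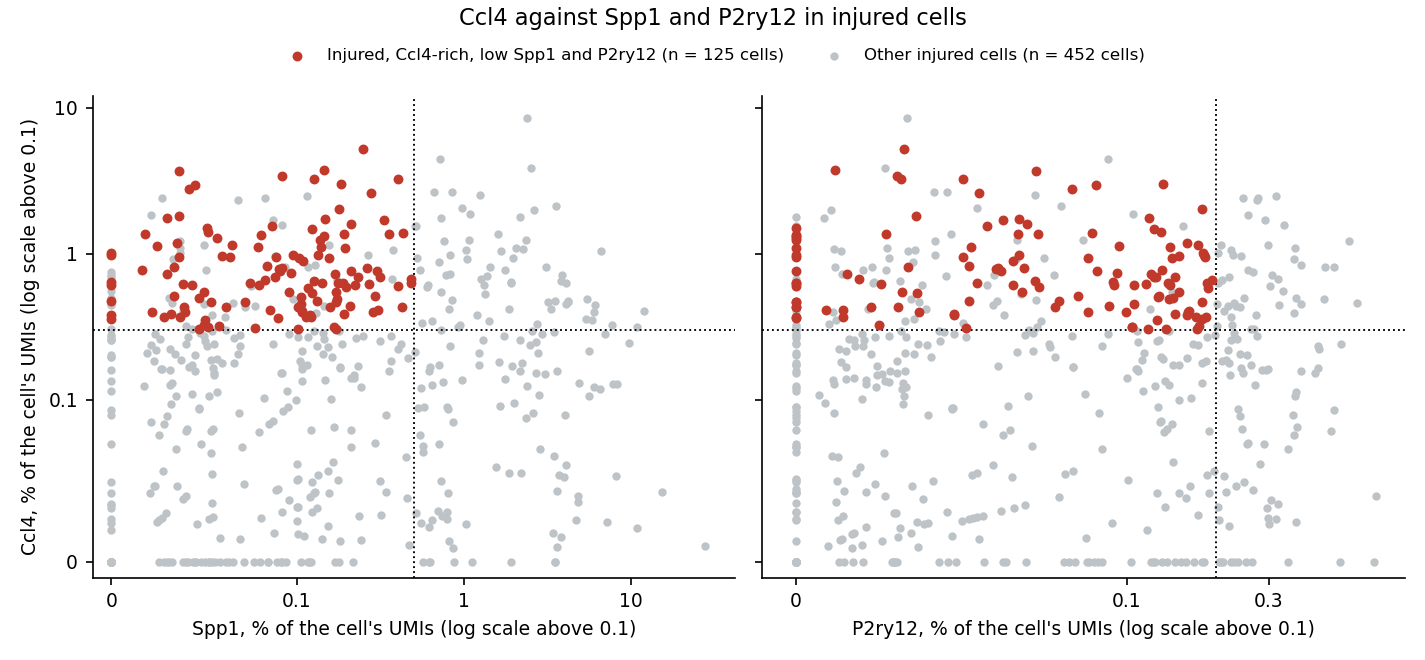
Share of a cell's UMIs from Ccl4 (vertical axis, percent) against that from Spp1 (left) and P2ry12 (right) in each injured cell, with axes linear up to 0.1% and logarithmic above. Red points are the 125 Ccl4-rich cells low in Spp1 and P2ry12, grey points the other 452 injured cells, and dotted lines the limits of 0.3%, 0.5% and 0.2%; no gap separates the red points from the grey ones.

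Summed over cells, the CC chemokine genes were mostly higher in the Ccl4-rich low cells than in the other injured cells. Ratios are log2 ratios of summed CPM, given with an exact 95% Poisson interval. Genes count as measured from 20 UMIs over both groups together. Of 8 measured CC chemokines 5 were 2-fold or more higher and 0 were 2-fold lower, and their median log2 ratio was 1.12, or 1.07 without Ccl4, which the rule used. The 5 were Ccl4, whose difference the rule set, and Ccl3, Ccl2, Ccl12 and Ccl5. Over all 7676 measured genes 245 (3.19%) were at least 2-fold higher and 404 (5.26%) at least 2-fold lower, 8.45% in all, and the median was 0.03. When totals were scaled with trimmed means of M-values (TMM) in place of the total, which shifts every ratio by -0.09, the split became 141 higher and 504 lower. All these ratios compare cells of 1 library that the rule itself separated.

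Ccl3, which encodes the chemokine most like Ccl4 and lies near it on chromosome 11, ran from 0% to 3.53% of a cell's UMIs in the Ccl4-rich low cells, with a median of 0.262%. In the other injured cells it ran from 0% to 4.05%, with a median of 0.0677%, so the ranges overlapped while the medians lay far apart. Summed, Ccl3 stood at 4400.3 CPM against 2094 CPM, a log2 ratio of 1.07 (1.00 to 1.14). Ccl2, a ligand of Ccr2 that recruits monocytes, had a median of 0.121% and a highest value of 2.00% in the Ccl4-rich low cells, against a median of 0.0449% and a highest value of 1.39% in the other injured cells. Its log2 ratio was 1.20 (1.11 to 1.29), with 2482 CPM against 1081 CPM. Ccl12, a further mouse ligand of Ccr2, had a log2 ratio of 1.16 (1.05 to 1.27). Ccl7, another monocyte attractant, had 254.6 CPM against 137.6 CPM, a log2 ratio of 0.89 (0.60 to 1.17). Ccl5, a T cell attractant and an interferon target, had 835 CPM against 325 CPM, a log2 ratio of 1.36 (1.20 to 1.53). Ccl6 and Ccl9, made by many macrophages, had log2 ratios of 0.03 (-0.23 to 0.28) and 0.50 (0.22 to 0.76).

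In GENCODE coordinates on GRCm38, Ccl4 lies on the plus strand at chr11:83662584-83664683 and Ccl3 on the minus strand at chr11:83647844-83649355. Ccl5 lies at chr11:83525778-83530518. Ccl2, Ccl7 and Ccl12 form a second group at chr11:82035571-82037453, chr11:82045712-82047525 and chr11:82101845-82103400. All are protein-coding.

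The chemokine transcripts were spread over the chosen cells to very different degrees. The 5 cells with most Ccl4 UMIs held 21.5% of the group's Ccl4, and the corresponding share was 29.9% for Ccl3, 33.1% for Ccl2 and 45.7% for Ccl12. It was 80.9% for Ccl5 and 75.3% for Ccl7. Ccl5 had a UMI in 28 of 125 cells and its median was 0, so its 1.36 ratio rests on few cells. Within the chosen cells, each thinned at random to 1500 UMIs (124 cells, 1 shallower cell left out), Spearman's rho with Ccl4 was 0.54 for Ccl3 and 0.36 for Ccl2. For Ccl12 it was 0.16 and for Ccl5 0.08. These correlations over 124 cells of 1 library describe it only, and the cells share its free RNA.

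Several chemokines were seen in the same cell. At 1500 UMIs, 61 of 124 chosen cells (49.2%) had a UMI of at least 3 of the genes Ccl3, Ccl2, Ccl12, Ccl7 and Ccl5. The share was 22.1% in the other injured cells, 41.4% in the other Ccl4-rich injured cells, 19.2% in injured cells low in all 3 rule genes and 21.0% in uninjured Ccl4-rich cells. Free RNA can give such UMIs in cells that do not make them. In 9 injured barcodes that carried endothelial or oligodendrocyte precursor markers, with a median of 3254 UMIs, 3 had a Ccl4 UMI and 3 a Ccl3 UMI, at 123 and 92.2 CPM, and 0 of the 9 were among the chosen cells.

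**Figure D2:**
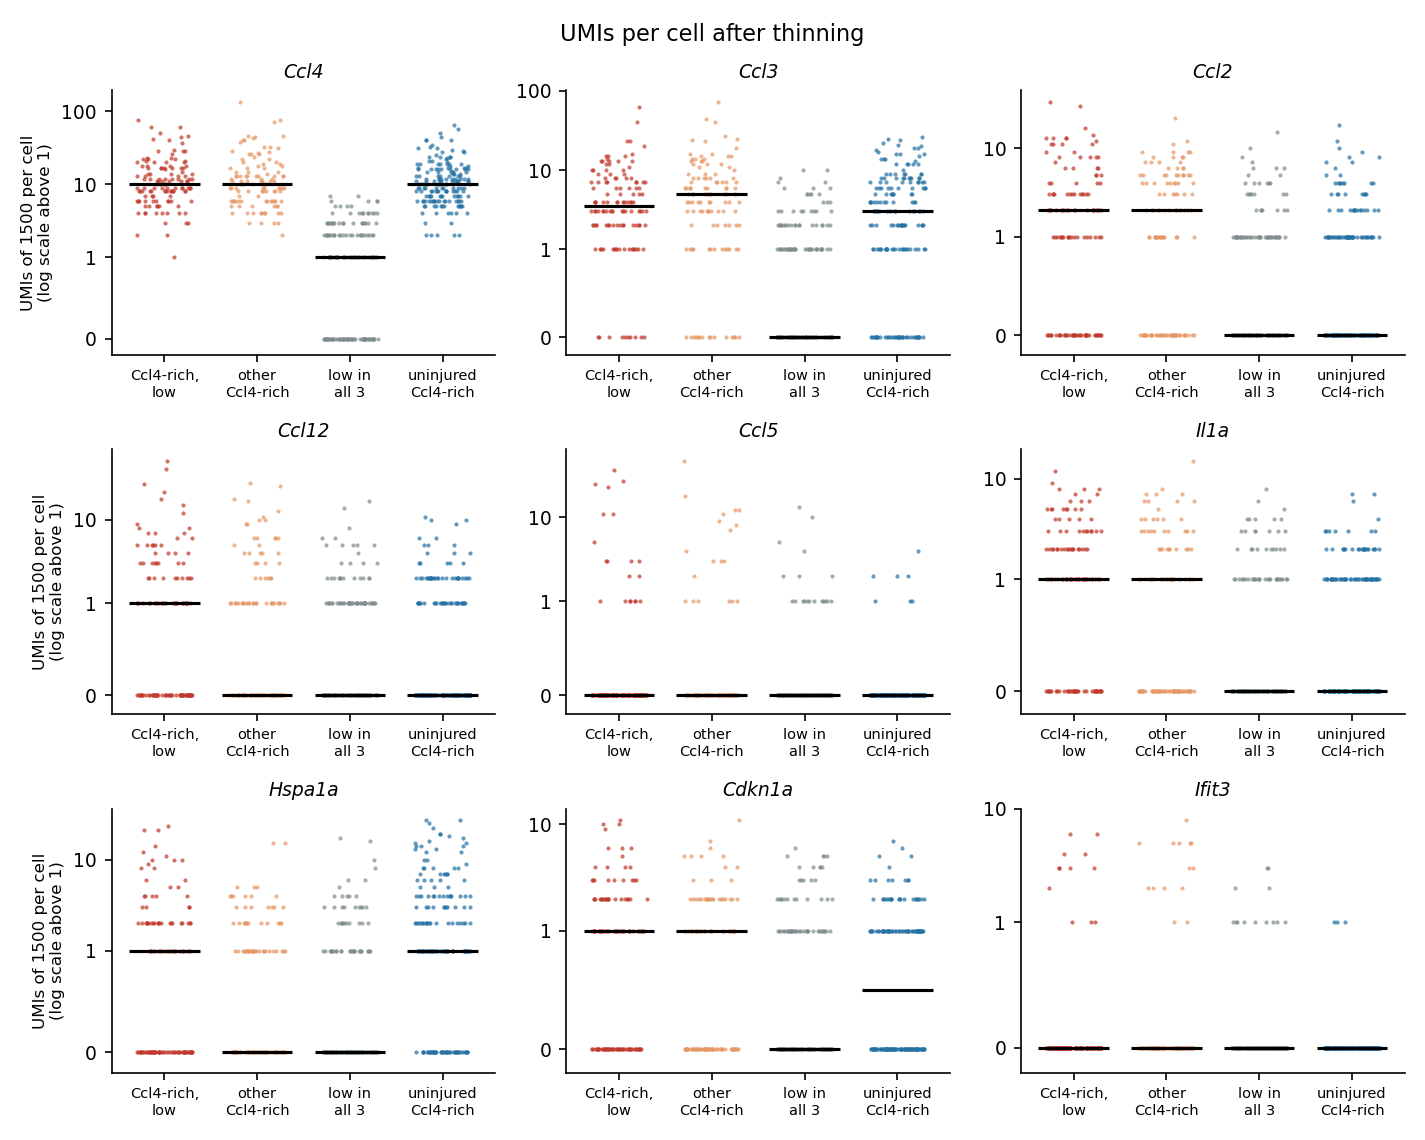
UMIs per cell of 9 genes after each cell was thinned to 1500 UMIs (vertical axis, linear up to 1 and logarithmic above), one point per cell and a black line at the median. The groups are, from the left, the Ccl4-rich low cells, the other injured Ccl4-rich cells, the injured cells low in all 3 rule genes and the uninjured Ccl4-rich cells; Ccl3 and Ccl2 are spread over most of the chosen cells while Ccl5 and Ifit3 are at 0 in most and high in few.

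Among inflammatory cytokines the alarm cytokine gene Il1a (interleukin 1 alpha) was higher by 2-fold. It ran from 0% to 0.762% in the Ccl4-rich low cells, with a median of 0.0753% and 19 of 125 cells at 0. In the other injured cells the median was 0.0223%, the highest value 0.698%, and 183 of 452 cells were at 0. Its summed level was 1054 CPM against 515 CPM, a log2 ratio of 1.03 (0.89 to 1.17), and at 1500 UMIs it was seen in 68.5% of the chosen cells (59.6% to 76.6%) against 38.4% (33.8% to 43.1%). Tnf, the gene of tumour necrosis factor, had 742 CPM against 401 CPM, a log2 ratio of 0.89 (0.72 to 1.05), and Il1b (interleukin 1 beta) 592.5 CPM against 373 CPM, a log2 ratio of 0.67 (0.49 to 0.85). Over the list of interleukin 1 family, Tnf and other cytokines, 1 of 12 measured genes was at least 2-fold higher and 1 at least 2-fold lower, with a median log2 ratio of 0.48. The gene at least 2-fold lower was Il12b, with 3 UMIs against 26.

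The other genes named with Ccl4 in the label were less marked. Rrad, which encodes a small GTPase that restrains calcium channels, had 334 CPM in the Ccl4-rich low cells against 187.5 CPM in the other injured cells, a log2 ratio of 0.83 (0.59 to 1.08). It was at 0 in 50 of the 125 cells. Tnfrsf12a, the receptor of the cytokine TWEAK, had 119 CPM against 75.8 CPM, a log2 ratio of 0.65 (0.23 to 1.05), and was at 0 in 77 of 125 cells. At 1500 UMIs, 10 of 124 chosen cells (8.06%) had a UMI of each of Il1a, Rrad and Tnfrsf12a, and 28 (22.6%) had a UMI of none. In the other injured cells these shares were 2.93% and 49.0%. The label genes thus describe a tendency of the group and not a set that each cell carries. The receptor gene Hcar2, whose product binds beta-hydroxybutyrate, had 579 CPM against 309 CPM, a log2 ratio of 0.90 (0.72 to 1.09).

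Genes of the NF-kappa-B pathway leaned the same way by less than 2-fold. Of 18 measured subunits, inhibitors and feedback genes 1 was higher by 2-fold or more and 0 lower, and the median log2 ratio was 0.49. Rel, a subunit of the factor, had a log2 ratio of 0.73 (0.48 to 0.98), the adhesion gene Icam1 0.68 (0.53 to 0.83), and Nfkbia, the inhibitor that the pathway induces against itself, 0.27 (0.17 to 0.37). The member past 2-fold was Bcl3, on 9 UMIs against 19. Of 24 immediate early and dissociation response genes 2 were higher by 2-fold or more and 0 lower, and the median log2 ratio was 0.71. These 2 were the heat shock genes Hspa1a and Hspa1b. Klf6, an early transcription factor gene, had 1036 CPM against 559 CPM (log2 ratio 0.89, 0.75 to 1.03), Atf3 801 CPM against 515.5 CPM (0.64, 0.48 to 0.79) and Egr2 119 CPM against 64.2 CPM (0.89, 0.46 to 1.30). Collagenase digestion for 1 h at 37 °C preceded sorting in both libraries, and genes of this list are known to be induced by such handling. The part of handling in the chosen cells' levels was not tested.

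Hspa1a encodes an inducible Hsp70 chaperone that refolds damaged proteins. It ran from 0% to 1.91% of a cell's UMIs in the Ccl4-rich low cells, with a median of 0.0479% and 36 of 125 cells at 0. In the other injured cells the median was 0.0200% and the highest value 0.958%. The summed level was 1356 CPM against 486 CPM, a log2 ratio of 1.48 (1.35 to 1.61), and 0.77 when every cell was thinned to 1500 UMIs before the rule was applied. Hspa1b, a near-identical neighbour whose reads may be split with it, had a log2 ratio of 1.39 (0.76 to 2.01). Of 15 measured heat shock chaperone genes, a list chosen after their values were seen, 3 were higher by 2-fold or more and 0 lower, and the median log2 ratio was 0.39. Hsp90aa1, a constitutive and inducible Hsp90, had a log2 ratio of 0.60 (0.44 to 0.75) and Hspa8, the constitutive Hsp70, 0.31 (0.23 to 0.38).

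Promoter sequence is shown for Hspa1a, for Il1a and for Ccl3, as the genes for which the heat shock, cytokine and chemokine values were given above. Each is the 250 bases before the gene's start in RefSeq's GRCm38.p6 table, on the gene's strand, at chr17:34972157-34972406 (minus), chr2:129309973-129310222 (minus) and chr11:83649379-83649628 (minus). Capitals mark a heat shock element core, GAANNTTC, in Hspa1a and an AP-1 site, TGANTCA, in Il1a.
Hspa1a: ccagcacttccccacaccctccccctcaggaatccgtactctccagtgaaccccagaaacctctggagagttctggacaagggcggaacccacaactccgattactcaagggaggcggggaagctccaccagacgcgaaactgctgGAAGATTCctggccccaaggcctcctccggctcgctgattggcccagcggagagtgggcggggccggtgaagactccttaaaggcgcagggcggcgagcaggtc
Il1a: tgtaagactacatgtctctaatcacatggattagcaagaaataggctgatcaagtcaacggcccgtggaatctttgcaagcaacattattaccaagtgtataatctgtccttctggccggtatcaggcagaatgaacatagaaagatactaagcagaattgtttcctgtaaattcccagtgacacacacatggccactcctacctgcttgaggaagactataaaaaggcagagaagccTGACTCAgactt
Ccl3: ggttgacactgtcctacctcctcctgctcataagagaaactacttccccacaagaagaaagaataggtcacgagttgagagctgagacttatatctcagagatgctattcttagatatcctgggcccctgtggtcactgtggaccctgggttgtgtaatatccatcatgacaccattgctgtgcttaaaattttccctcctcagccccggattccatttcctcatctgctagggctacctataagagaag
Both strands were searched. Windows were held for 13 of the 19 genes looked up, which were the 12 highest in the comparison with the other injured cells and 7 more chosen for their roles. GAANNTTC was in 2 of these 13 (Hspa1a and Hspa1b, whose windows share 247 of 250 bases) and in 6.69% of all 32851 windows. TGANTCA was in 1 of 13 (Il1a) and in 6.75% of all windows. An NF-kappa-B motif (3 G, 5 bases of any kind, 2 C) was in 9 of 13 and in 45.8% of all windows, and no match overlapped a match of another motif. A match is a description of letters and not a site.

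Cdkn1a encodes p21, which halts the cell cycle. It had a median of 0.0647% and a highest value of 0.943% in the Ccl4-rich low cells, against a median of 0.0239% and a highest value of 0.657% in the other injured cells. Its log2 ratio was 1.00 (0.85 to 1.15), with 901.5 CPM against 451 CPM. Insig1, which holds back sterol synthesis by anchoring the sensor of sterol-regulated transcription, had 119 CPM against 39.5 CPM, a log2 ratio of 1.59 (1.13 to 2.05). Over 11 measured genes of sterol synthesis and its regulators, a list added after the values were seen, 1 gene, Insig1, was at least 2-fold higher, and the median was 0.19.

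**Figure D3:**
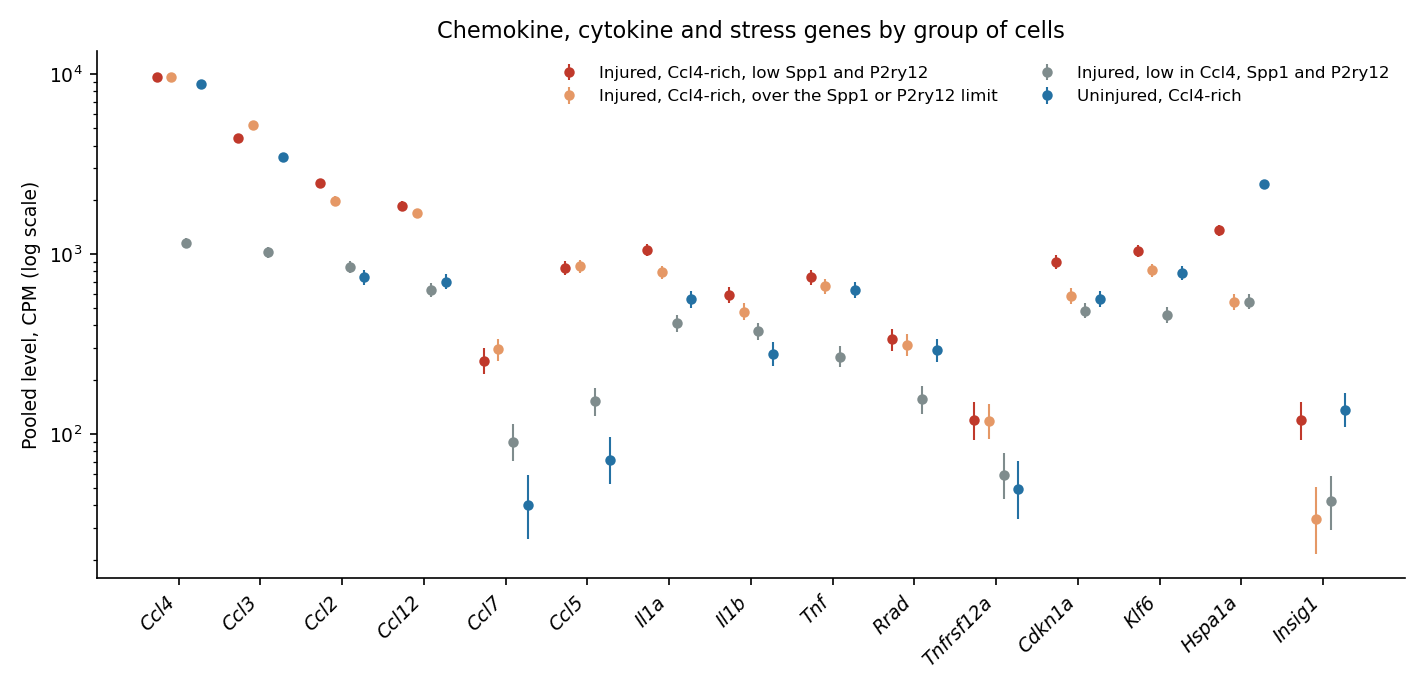
Summed level in CPM (vertical axis, logarithmic) of chemokine, cytokine and stress genes in 4 groups of cells, with exact 95% Poisson intervals that cover counting error only. In most genes the 2 injured Ccl4-rich groups lie close together and above the injured cells low in all 3 rule genes; Hspa1a is highest in uninjured Ccl4-rich cells, at 2451 CPM.

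Several damage-response genes were lower in the Ccl4-rich low cells than in the other injured cells. Gpnmb, a transmembrane glycoprotein gene of lipid-laden phagocytes, had 9 UMIs in 8 cells, or 15.3 CPM, against 425 UMIs, or 170 CPM, a log2 ratio of -3.47 (-4.61 to -2.53). Igf1, a growth factor for myelin-forming cells, had 62.8 CPM against 244 CPM, a log2 ratio of -1.96 (-2.48 to -1.48). Lgals3 (galectin 3) had a log2 ratio of -1.71 (-2.08 to -1.37) and the scavenger receptor gene Msr1 -2.00 (-3.03 to -1.13). The rule removed the cells rich in Spp1, which is itself in the list of damage-associated genes. The lysozyme gene Lyz2 had -1.19 (-1.29 to -1.09), with a median per cell of 0.112% of UMIs against 0.146%, and 5 cells held 20.1% of its UMIs in the other injured cells. Of 23 measured damage-associated genes 5, Spp1 among them, were lower by 2-fold or more and 0 higher, and the median log2 ratio was -0.35, or -0.34 without Spp1. Apoe, the main lipid carrier of glia, had 20623 CPM against 33704 CPM, a log2 ratio of -0.71 (-0.74 to -0.68).

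Several lipid-binding genes were also low against the other injured cells. Of 16 measured genes of lipid handling and cholesterol efflux 3 were lower by 2-fold or more and 0 higher, and the median log2 ratio was -0.57. Fabp5, a fatty acid carrier, had a log2 ratio of -1.07 (-1.44 to -0.72). Fabp4, a related carrier, had 1 UMI against 71, a log2 ratio of -4.06 (-9.38 to -1.54), and 68 of the 71 lay in 1 cell. Fabp7 had 0 UMIs against 56, of which 53 lay in 8 barcodes with at least 3 UMIs of oligodendrocyte precursor markers, and none of the 8 was a Ccl4-rich low cell. That marker list stood at 11.9 CPM in the Ccl4-rich low cells and 42.3 CPM in the other injured cells. Cd5l, a macrophage survival factor gene, had 0 UMIs against 77. With a floor of 3 counts over the group in place of 0, Fabp7 was 4.39-fold and Cd5l 6.03-fold lower, values that the floor sets. Cxcl1, a neutrophil attractant, had 4 UMIs against 150, a log2 ratio of -3.14 (-5.03 to -1.75), unlike the CC chemokines. In cells with Y-linked UMIs alone it had 0 against 25. The CXC chemokines did not go down as a list. Of 6 measured, 2 were lower by 2-fold or more and 0 higher, 4 had ratios above 0, and the median log2 ratio was 0.32.

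Summed levels of G2 and M phase genes of the cell cycle were mostly lower in the chosen cells than in the other injured cells. Of 19 measured, 10 were lower by 2-fold or more and 0 higher, and the median log2 ratio was -1.01. Ube2c, which marks proteins for destruction in mitosis, had 4 UMIs against 99, a log2 ratio of -2.54 (-4.44 to -1.14), and Mki67, a marker of cycling cells, 1 against 29. The direction of the list turned under 3 settings: its median was 0.0099 with every cell thinned to 1500 UMIs before the rule, 0.27 in cells with Y-linked UMIs alone and 0.60 without cells that held 3 or more UMIs of the list. This last setting kept 67 of 125 chosen cells and 252 of 452 other injured cells. Genes of S phase had a median of -0.03.

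Genes of resting microglia did not separate the groups. Of 20 measured homeostatic genes 0 were at least 2-fold apart, with a median log2 ratio of 0.12, or 0.15 without P2ry12. Tmem119, a microglial membrane protein gene, had 776 CPM against 729 CPM, a log2 ratio of 0.09 (-0.06 to 0.24). Cx3cr1, the fractalkine receptor gene, had 0.05 (-0.17 to 0.26). Siglech, a sialic acid-binding receptor gene, had 0.54 (0.30 to 0.78). The 28 measured lysosome genes and the 16 genes of oxidative phosphorylation each had 0 genes at least 2-fold apart, with medians of -0.13 and -0.23, and the 16 genes of glycolysis and hypoxia likewise had 0, with a median of -0.21.

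**Figure D4:**
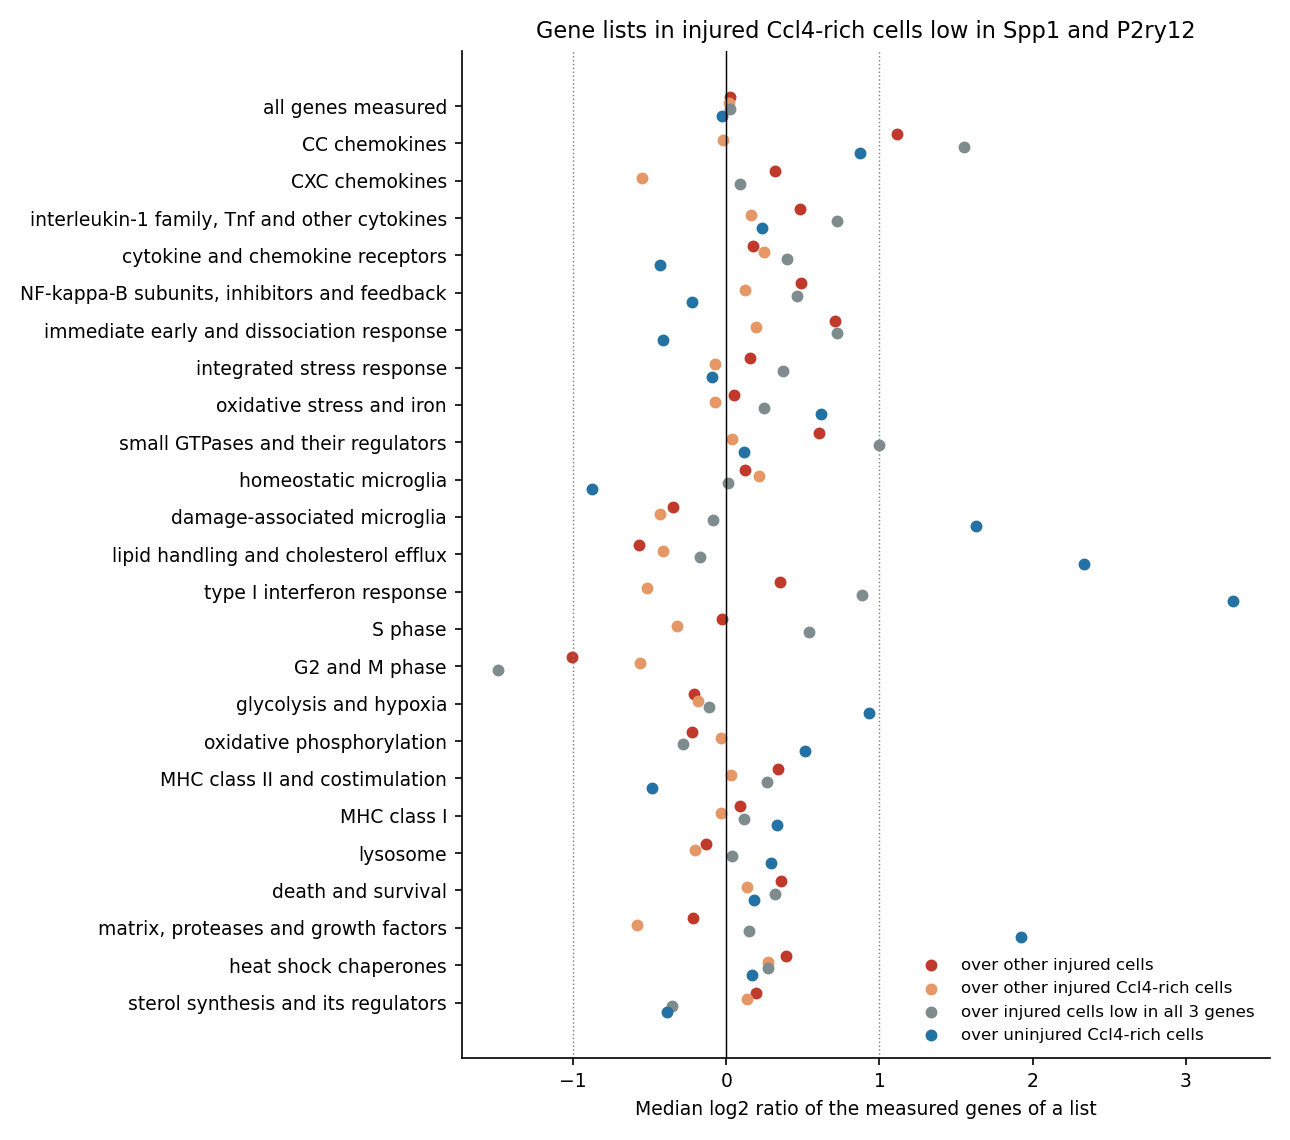
Median log2 ratio (horizontal axis) of the measured genes of each list in the Ccl4-rich low cells over 4 other groups, drawn where at least 5 genes were measured; dotted lines mark 2-fold. The CC chemokines lie at 1.12 over the other injured cells and at -0.02 over the other injured Ccl4-rich cells, and the interferon list lies at 3.31 over uninjured Ccl4-rich cells.

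The next comparison held Ccl4 level and set the 125 cells against the other 118 Ccl4-rich injured cells, which exceeded the Spp1 or the P2ry12 limit. The CC chemokines as a list and the label genes Rrad and Tnfrsf12a lay close to level here. Ccl4 was level by selection, and the label gene Il1a was higher by less than 2-fold. Of 5340 measured genes 161 (3.01%) were at least 2-fold higher and 155 (2.9%) at least 2-fold lower, 5.92% in all. Of 8 CC chemokines 0 were 2-fold apart, with a median of -0.02. Ccl4 had 9614 CPM against 9672 CPM, Ccl3 a log2 ratio of -0.25 (-0.32 to -0.17), Ccl2 0.33 (0.22 to 0.44) and Il1a 0.42 (0.25 to 0.59). Rrad had 0.10 (-0.19 to 0.38) and Tnfrsf12a 0.02 (-0.47 to 0.50), so their intervals held 0 between Ccl4-rich cells with and without high Spp1 or P2ry12.

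Between the Ccl4-rich injured groups, 4 of 15 measured heat shock chaperone genes were higher by 2-fold or more and 0 lower (median 0.27), and 2 of 8 sterol synthesis genes were higher and 0 lower (median 0.14). Both lists were added after values were seen. Of 9 integrated stress response genes 0 differed by 2-fold or more (median -0.08). Of 22 damage-associated genes 4, Spp1 among them, were lower and 0 higher (median -0.43, or -0.41 without Spp1). Hspa1a had 1356 CPM against 540 CPM, a log2 ratio of 1.33 (1.15 to 1.51), and Insig1 119 CPM against 33.7 CPM, 1.82 (1.12 to 2.56). Tmem176a and Tmem176b, paired genes of intracellular cation channels, had 1.08 (0.71 to 1.45) and 0.94 (0.62 to 1.27). Bmp2k, a kinase gene, had 1.08 (0.64 to 1.52) and Gmfg, an actin-branch regulator of blood cells, 1.10 (0.63 to 1.58). Lower were Gpnmb at -3.11 (-4.29 to -2.12), Igf1 at -2.15 (-2.70 to -1.64), Msr1 at -2.06 (-3.14 to -1.10), Lgals3 at -1.47 (-1.87 to -1.08) and Loxl2, a collagen-crosslinking enzyme gene, at -3.30 (-4.98 to -1.99) on 5 UMIs against 57. Of 13 measured genes for matrix, proteases and growth factors 5 were at least 2-fold lower and 0 higher (median -0.59, or -0.57 without Spp1). Among the 5 were Spp1, which the rule used, and Gpnmb, Igf1 and Lgals3, which are also in the damage-associated list. Of 19 interferon response genes 3 were at least 2-fold lower, with a median of -0.52, among them Rsad2 at -1.09 (-1.51 to -0.67).

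Against the 174 injured cells low in all 3 rule genes, which share low Spp1 and low P2ry12 with the chosen cells, the chemokine difference was largest of the comparisons within the injured library. Of 5598 measured genes 239 (4.27%) were at least 2-fold higher and 253 (4.52%) at least 2-fold lower, 8.79% in all. The Ccl4 limit alone parts these 2 groups, so the Ccl4 difference was set by the rule. Of 8 CC chemokines, Ccl4 included, 6 were higher by 2-fold or more and 0 lower. The median log2 ratio was 1.55, and also 1.55 without Ccl4. Ccl3 had 4400.3 CPM against 1020 CPM, 2.11 (2.00 to 2.22), Ccl5 2.46 (2.18 to 2.76), Ccl2 1.55 (1.42 to 1.68) and Ccl12 1.56 (1.41 to 1.71). Of 11 cytokine genes 5 were at least 2-fold higher, among them Tnf at 1.47 (1.23 to 1.71) and Il1a at 1.36 (1.17 to 1.56). Rrad was at 1.11 (0.78 to 1.44) and Tnfrsf12a at 1.01 (0.46 to 1.57). The antiviral gene Rsad2 had 115 CPM against 21.7 CPM, 2.41 (1.65 to 3.25), but 85.3% of its UMIs in the chosen cells sat in 5 of them. Gpnmb had -0.58 (-1.91 to 0.63) and Hspa1a 1.32 (1.15 to 1.49). The damage-associated and lipid handling lists lay near level here. Of 22 damage-associated genes 2 were higher by 2-fold or more and 0 lower (median -0.09). Of 15 lipid handling genes 1 was higher and 1 lower (median -0.17).

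Several genes lower than in these cells came from few barcodes. Fabp7, a fatty acid carrier of astrocyte-lineage cells, had 0 UMIs against 55, which with the floor of 3 counts over the group sets its log2 ratio at -3.70. Fabp4 had 1 against 68, a log2 ratio of -5.59 (-10.92 to -3.06), and Ptn, a secreted growth factor gene, 3 against 74, -4.13 (-6.44 to -2.53). At 1500 UMIs these 3 genes were seen in 4.19%, 0.599% and 5.99% of the cells low in all 3 rule genes. The 68 Fabp4 UMIs lay in 1 cell, and 53 of the Fabp7 and 69 of the Ptn UMIs lay in the 8 barcodes with oligodendrocyte precursor markers, a list at 11.9 CPM in the chosen cells and 111 CPM in those low in all 3 genes. Lyz2 had a log2 ratio of -1.41 (-1.52 to -1.31) and Lyz1, a near-identical gene whose reads may be split with it, -2.20 (-3.33 to -1.23). The highest Lyz2 share was 1.15% in a chosen cell and 11.1% in a cell low in all 3 genes.

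The comparison across libraries set the 125 injured cells against 192 uninjured cells with Ccl4 at 0.3% or more, 27.6% of the uninjured library. The uninjured cells were shallower, with a median of 3216.5 UMIs and 1320.5 genes against 4081 and 1524. Counts of cells with a UMI are not adjusted for this unless thinning is named. Ccl4 itself was alike by selection, with a median of 0.652% in the injured cells and 0.639% in the uninjured ones. Of 5360 measured genes 326 (6.08%) stood 2-fold or more above the uninjured level and 458 (8.54%) 2-fold or more below it, 14.6% in all. The interferon response stood apart: 19 of 19 measured genes were at least 2-fold higher, with a median of 3.31. Rsad2 had 68 UMIs against 1, a log2 ratio of 6.17 (3.65 to 11.50), and Ifi27l2a, an interferon-induced gene, 934 CPM against 67.1 CPM, 3.80 (3.34 to 4.29). Ifit3, whose reads may be split with Ifit3b, had 4.21 (3.25 to 5.37), with 70.7% of its UMIs in 5 injured cells. Ifi27l2a was seen in 56.5% of the chosen injured cells at 1500 UMIs and in 7.95% of the uninjured ones.

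Lipid, damage and matrix genes were higher as well. By 2-fold or more, 9 of 13 measured genes of lipid handling were higher and 0 lower (median 2.34), of 20 damage-associated genes 12 and 0 (median 1.63, or 1.56 without Spp1) and of 12 matrix, protease and growth factor genes 7 and 0 (median 1.92, or 1.26 without Spp1). Ch25h, which makes 25-hydroxycholesterol, had 485.5 CPM against 14.4 CPM, a log2 ratio of 5.08 (4.13 to 6.22), and UMIs in 51 of 125 injured cells against 4 of 192. It was not particular to the chosen cells, since 70 of the 118 other injured Ccl4-rich cells held Ch25h UMIs. Apoc1, a lipoprotein component, had 54 UMIs against 0, a value of 19.1-fold higher that the floor of 3 counts over the group sets. Fn1 (fibronectin) had 53 UMIs against 1, 5.81 (3.27 to 11.14), and Il1rn, the natural blocker of the interleukin 1 receptor, 71 against 1, 6.24 (3.71 to 11.56). Spp1 stood at 1416 CPM in these injured cells and 107 CPM in the uninjured ones, 3.72 (3.36 to 4.11). The 9 injured barcodes rich in endothelial or oligodendrocyte precursor markers all held Spp1 UMIs, at 737 CPM, and the 4 such uninjured barcodes held 0. The part of free RNA in the Spp1 difference was not tested. AI607873 had 4.36 (3.49 to 5.39), and Mnda, of the interferon-inducible p200 family, 5.76 (3.22 to 11.09) on 51 UMIs against 1. Over the other injured cells, Fn1 had log2 ratios of -1.37 with Xist UMIs alone and -1.55 with Y-linked UMIs alone. In these classes Apoc1 had -1.73 and 1.23, Mnda -2.34 and 0.31, Il1rn 0.16 and -0.42, Ch25h 0.07 and 0.56, and AI607873 0.46 and 1.09.

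Ccl2, Ccl12, Ccl7 and Ccl5 were higher in the injured cells, while Ccl6 had a log2 ratio of 0.09 (-0.24 to 0.41) and Ccl9 one of -0.36 (-0.66 to -0.05). Of 8 CC chemokines 4 were higher by 2-fold or more and 0 lower, and the median log2 ratio was 1.41 without Ccl4. Ccl2 had 2482 CPM against 742 CPM, a log2 ratio of 1.74 (1.59 to 1.90), Ccl12 1.41 (1.24 to 1.57), Ccl7 2.67 (2.05 to 3.34) and Ccl5 3.54 (3.10 to 4.01), while Ccl3 had 0.34 (0.26 to 0.43). The Ccl7 and Ccl5 ratios rest on few injured cells, since 5 cells held 75.3% of the Ccl7 UMIs and 5 held 80.9% of the Ccl5 UMIs. Cxcl2, a neutrophil attractant, had 2.00 (1.86 to 2.14) and Il1a 0.91 (0.72 to 1.11). Tnf was close to level at 0.24 (0.04 to 0.44), as was Rrad at 0.20 (-0.10 to 0.50), and Tnfrsf12a had 1.26 (0.63 to 1.92).

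Resting and early-response genes were lower. Of 20 homeostatic genes 8 were lower by 2-fold or more and 0 higher, and the median log2 ratio was -0.88. P2ry12, which the rule used, had -2.06, and of genes it did not use P2ry13, a related nucleotide receptor, had -1.82 (-2.22 to -1.44), Tmem119 -1.34 (-1.50 to -1.18) and Cst3 (cystatin C, a protease inhibitor) -1.73 (-1.76 to -1.70). Slc2a5, a fructose transporter, had -2.38 (-3.03 to -1.78), Crybb1, a crystallin gene that microglia express, -1.99 (-2.49 to -1.52) and Fscn1, an actin-bundling protein gene, -1.93 (-2.28 to -1.58). The platelet glycoprotein gene Gp9 had -3.06 (-4.57 to -1.84) on 6 UMIs against 53, and Rmi2, of DNA repair, -2.39 (-3.42 to -1.50) on 12 against 67. Gadd45g, of the stress response, had -1.80 (-2.09 to -1.52). The early-response list had 3 of 24 genes lower by 2-fold or more and 0 higher, and the median log2 ratio was -0.41: Jun had 570 CPM against 1981 CPM, -1.80 (-1.97 to -1.62), and Hspa1a 1356 CPM against 2451 CPM, -0.85 (-0.98 to -0.73). Hspa1a was thus high among injured cells in the chosen group and still below uninjured Ccl4-rich cells.

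The same 3 limits were met by 21.7% of the injured cells and by 49 of the 695 uninjured cells (7.05%, 5.26% to 9.21%). The limits do not weigh alike in the libraries, since 299 injured cells (51.8%) and 180 uninjured cells (25.9%) were low in both Spp1 and P2ry12. Among the cells low in both, 41.8% (36.2% to 47.6%) of injured and 27.2% (20.9% to 34.3%) of uninjured cells were Ccl4-rich. Against these 49 cells, 404 of 4077 measured genes (9.91%) were at least 2-fold higher and 216 (5.3%) at least 2-fold lower, 15.2% in all, and with TMM 473 and 154. The interferon list again had 19 of 19 genes at least 2-fold higher, with a median of 2.46, and Ch25h a log2 ratio of 3.75 (2.69 to 5.08). Ccl3 had -0.05 (-0.16 to 0.06). By 2-fold or more, 8 of 13 lipid handling genes were higher and 0 lower (median 1.33), 8 of 20 damage-associated genes (median 0.89, or 0.83 without Spp1) and 9 of 12 matrix, protease and growth factor genes (median 1.55). Of 20 homeostatic genes 6 were lower and 0 higher (median -0.55, or -0.50 without P2ry12). The lipid handling, damage-associated and homeostatic medians were nearer 0 than against the uninjured Ccl4-rich cells. The 49 cells held 194222 UMIs against 625521 in the uninjured Ccl4-rich cells. The floor of 3 counts thus caps the ratio of a gene at 0 UMIs at a lower value here. The part of this cap in the medians was not tested.

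The injured library held cells of both sexes, and the uninjured library held 6 cells with Xist UMIs alone and 235 with Y-linked UMIs alone. Of the 125 cells 52 had Xist UMIs alone, 30 Y-linked UMIs alone, 3 both and 40 neither. In uninjured Ccl4-rich cells 2 had Xist alone and 68 Y-linked UMIs alone. The chosen cells made up 24.4% (18.8% to 30.8%) of injured cells with Xist alone and 20.4% (14.2% to 27.8%) of those with Y-linked UMIs alone. Cells of different sex come from different animals, so values within each are given side by side, against the other injured cells of the same class. Ccl3 had a log2 ratio of 0.90 with Xist alone and 1.47 with Y-linked UMIs alone, Ccl2 1.02 and 1.32, and Il1a 1.10 and 0.95. Ccl5 had 2.00 and 0.57, Cdkn1a 0.44 and 1.76, and Hspa1a 0.97 and 1.70. Ccl12 had 0.22 and 0.63, below its 1.16 over all cells, and 0.53 without the 5 chosen cells with most interferon UMIs. Gpnmb had -3.42 with Xist alone and 0 UMIs against 127 with Y-linked UMIs alone.

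Against uninjured cells the library and the sex could be separated for cells with Y-linked UMIs alone, 30 injured and 68 uninjured. There the interferon list had a median of 3.37, lipid handling 2.55, the damage-associated list 1.17 and the homeostatic list -0.66. The matrix, protease and growth factor list had 0.89, against 1.92 over all cells. The list of interleukin 1 family, Tnf and other cytokines had -0.14, against 0.24 over all cells. Ch25h had a log2 ratio of 5.93, Cst3 -1.59 and Jun -1.82. Library, animals and injury cannot be told apart.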

How the data were processed

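The authors deposited raw UMI counts (whole numbers) of 27998 genes in 580 injured and 705 uninjured barcodes. Per the submitters' processing notes, Cell Ranger 2.0.1, STAR, Seurat 2.1.0 and GRCm38.p5 (mm10) were used; the annotation and any barcode filter are not given there. Barcodes were kept from 200 genes upward and up to 10% mitochondrial UMIs, 577 injured (3095511 UMIs) and 695 uninjured (2093084 UMIs). Doublets were gated out at the sort, per the labels, and no caller was run; 0 of the chosen cells exceeded 3 times the median UMIs of the library. UMIs were summed over the cells of a group and scaled to CPM. Ratios, intervals and the floor of 3 counts for a gene at 0 UMIs are as given with the results, and the 2-fold size stands in place of a test. Genes named are the 12 highest and 12 lowest over the other injured cells, 10 each over uninjured Ccl4-rich cells and 6 each in the other comparisons within the injured library, ranked by the interval bound nearest 0 among genes with at least 50 UMIs in 1 group, with up to 4 genes of each of 22 lists and a fixed set; mitochondrial, ribosomal, haemoglobin, Rik, numbered Gm and sex-linked genes were left out of the ranking. Ccl6, Ccl7, Ccl9, Cxcl2, Hcar2, Hsp90aa1 and Hspa8 fall outside this rule and were named after their values were seen. The members and lists were chosen with earlier results of these data known. Not every gene named by this rule is printed, and some results are not reported here. The ratio and thinning steps were tested on simulated counts. Alternatives were the rule's limits, thinning, sex classes, other scalings, gene minimum and fold size. Python 3.11.15, scipy 1.17.1, and edgeR 4.0.16 in R 4.3.3 for TMM factors alone, were used.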

Additional observations from a re-analysis of the deposited data

How the results depend on the processing

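No paired analysis was possible because each condition has 1 library, and for the same reason no replicate could be left out. Counts of genes at least 2-fold higher and lower are given here in the order other injured cells, uninjured Ccl4-rich cells, other injured Ccl4-rich cells and injured cells low in all 3 rule genes, always for the Ccl4-rich low cells over that group. With at least 100 UMIs per gene they were 18 and 35, 81 and 71, 6 and 11, and 35 and 10. With no gene minimum they were 663 and 698, 913 and 1255, 713 and 721, and 780 and 912. At a 3-fold size they were 29 and 123, 133 and 119, 21 and 31, and 36 and 69. These 3 settings change how many genes are counted by their construction.

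The cause was not tested for the following, where several settings also changed the number of measured genes. With every cell thinned to 1500 UMIs before the rule, the counts over uninjured Ccl4-rich cells were 213 and 282 of 2771 measured genes. Over other injured Ccl4-rich cells they were 59 and 61 of 2247, and over cells low in all 3 genes 146 and 105 of 2551. In the main comparisons 5360, 5340 and 5598 genes were measured over these 3 groups. With Xist UMIs alone, 138 of 5178 were higher over other injured cells and 90 of 3323 over other injured Ccl4-rich cells. Over cells low in all 3, 87 were higher and 113 lower of 3018. The 2 such uninjured cells gave no comparison. With Y-linked UMIs alone, the counts over uninjured Ccl4-rich cells were 193 and 234 of 2482, and over other injured Ccl4-rich cells 76 and 75 of 2001. Over cells low in all 3, 128 of 2191 were lower. Without cells with 3 or more UMIs of the G2 and M list, 79 and 87 of 3097 were counted over other injured Ccl4-rich cells. Without barcodes with 3 UMIs of another type's markers, 155 of 5234 were lower over cells low in all 3. TMM gave 141 of 7676 higher over other injured cells, and a Ccl4 limit of 0.2% gave 151 of 7676. A P2ry12 limit of 0.4% gave 329 of 5340 higher over other injured Ccl4-rich cells. Chosen after the data were seen, the 33 cells whose intervals clear all 3 limits gave 497 higher and 626 lower of 7032 over other injured cells. They gave 104 of 4324 higher over other injured Ccl4-rich cells and 386 of 4683 lower over cells low in all 3.

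The share of injured cells meeting the rule was 27.6% and 14.7% with Ccl4 limits of 0.2% and 0.5%, 13.7% and 28.9% with P2ry12 limits of 0.1% and 0.4%, and 25.8% with an Spp1 limit of 1%. The share of uninjured cells was 10.1% and 4.17% with those Ccl4 limits and 2.88% and 18.1% with those P2ry12 limits.

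Over other injured cells, the amino acid transporter gene Slc7a5 turned from -1.23 to 0.10 with the Ccl4 limit of 0.2% and to 0.27 with the P2ry12 limit of 0.4%. Rnd1 turned from 1.33 to -1.25 when thinned. Cd40 turned from 1.28 to -0.15 without the 5 cells with most interferon UMIs, and Il12b from -1.03 to 0.60 in the 33 cells; both of these settings were added after the data were seen. The G2 and M median over other injured cells turned to 0.0099 when thinned, 0.27 with Y-linked UMIs alone and 0.60 without cells with 3 or more UMIs of the list. Over cells low in all 3 it turned to 0.54 with Y-linked UMIs alone, 0.59 without cells with 3 or more UMIs of the list and 0.19 with at least 100 UMIs per gene. The CC chemokine median over other injured cells lay between 0.66 and 1.47 under the settings run. With 1 library per condition, depth limits genes under about 20 UMIs, and differences between libraries have no replicate error.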
